A study of Mus musculus with 40 samples.

Results

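The TEAD and YAP pathway genes described here are 10 genes: the transcription factors Tead1, Tead2, Tead3 and Tead4, the coactivators Yap1 and Wwtr1 (the gene of TAZ), the kinases Lats1 and Lats2, the angiomotin family member Amotl2, and Cdx2. They are 10 of 18193 genes for which the array carries a probe set listed with 1 gene only. The annotation lists 22 probe sets with 1 of these genes alone, and for each gene the probe set with the highest mean over all arrays was taken. For 9 of the 10 that probe set passed the filter on low values. Amotl2 did not, and was described without a test.

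RNA of B6D2 mouse embryos at the 1-cell and 2-cell stages was measured on an Affymetrix array of 45101 probe sets. The embryos came from fertilization, from parthenogenetic activation, or from nuclear transfer of a somatic cell (SCNT), with cumulus cells of B6D2 females as donors. Both stages of fertilized and of SCNT embryos were studied with and without α-amanitin, which blocks RNA polymerase II, so that there are 10 groups. Each group has 4 arrays except the untreated SCNT 1-cell group, where the column of replicate 2 holds no values and 3 were used. An A before the replicate number was taken to mean amanitin treatment. Most SCNT samples with that letter name the drug in full, while for fertilized samples this reading rests on the code and the design text. The labels name MEMα as the medium of SCNT embryos and KSOM for 1 fertilized sample, so medium and origin cannot be told apart. Whether replicates were separate cultures or animals is not given, nor how many embryos a sample held, and the spread that the p-values rest on is therefore that of these samples and may be technical.

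TEAD proteins bind DNA but activate genes only with a coactivator, chiefly YAP1 or TAZ. In the Hippo pathway the LATS kinases phosphorylate both coactivators and keep them out of the nucleus, and angiomotins hold YAP1 at cell junctions. In the preimplantation mouse embryo TEAD4 with YAP1 turns on Cdx2 in outer cells, which become trophectoderm, while LATS activity keeps Cdx2 off in inner cells. These 1-cell and 2-cell embryos precede that choice, and the mouse genome begins its main wave of transcription at the 2-cell stage.

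Values below are log2 of the deposited intensity plus 6.9, quantile normalized, so a difference of 1 is a doubling on that scale. The overall median of the log2 values was 5.34. Low probe sets near or under it are called dim here, and for them the added constant understates a difference. Differences are given with the standard error (SE) of the fit, and a gene is called where its adjusted p (limma, Benjamini-Hochberg over 14916 genes) was under 0.05. Levels of different probe sets were not set against each other. Pairs of arrays within a group had correlations of 0.9397 to 0.9797 over the genes tested. Of 13 measured oocyte and early embryo markers, 12 or 13 had a group mean above the overall median in every group. Their intensities summed to 38325 to 46503 on parthenogenetic 2-cell arrays. Untreated fertilized and SCNT 2-cell arrays had 21930 to 24991 and 16092 to 18793 units. With amanitin the sums were 48041 to 56456 and 40536 to 43478. The 11 markers of 2-cell transcription summed to 15460 to 28157 intensity units on untreated 2-cell arrays and to 533.8 to 2429 on all others. By group the former were 25475 to 28157 in parthenogenetic, 19084 to 21072 in fertilized and 15460 to 18440 in SCNT embryos. The part of these differences in comparisons with parthenogenetic embryos was not tested. Controls with added poly(A) RNA averaged 3.62 and 3.75 on the log2 scale, before quantile normalization, in the SCNT 1-cell groups without and with amanitin, and 6.19 to 10.36 in the other 8 groups. The part of that difference in comparisons with 1-cell SCNT embryos was not tested. In RNA of whole embryos, fewer cells with a transcript and less of it per cell cannot be told apart.

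Among the members, Tead4 and Wwtr1 rose from the 1-cell to the 2-cell stage in all 3 kinds of embryo. With amanitin both were within 1 log2 unit of the overall median or under it in 2-cell embryos, and both were lower in parthenogenetic than in fertilized or SCNT 2-cell embryos. These are the calls on the probe set with the highest mean of each gene. On a further probe set of each the rise in parthenogenetic embryos was not called, nor on that of Wwtr1 the difference between SCNT and parthenogenetic 2-cell embryos. In the change from 1 to 2 cells, 4 of the 9 tested members were called in fertilized embryos, where 60% of all genes tested were called. In SCNT embryos 3 were called (background 60.7%), in parthenogenetic embryos 5 (49.1%), in amanitin-treated fertilized embryos 1 (40.6%) and in amanitin-treated SCNT embryos 3 (55.4%). The median difference of the 9 members from the 1-cell to the 2-cell stage of fertilized embryos was -0.00, against -0.12 over all genes. The share called lay near the background in parthenogenetic embryos and below it in the other 4 comparisons, and the changes differ by member. In parthenogenetic embryos the count depended on the processing: with a gene's probe sets averaged, 3 members were called there in place of 5.

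**Figure D1:**
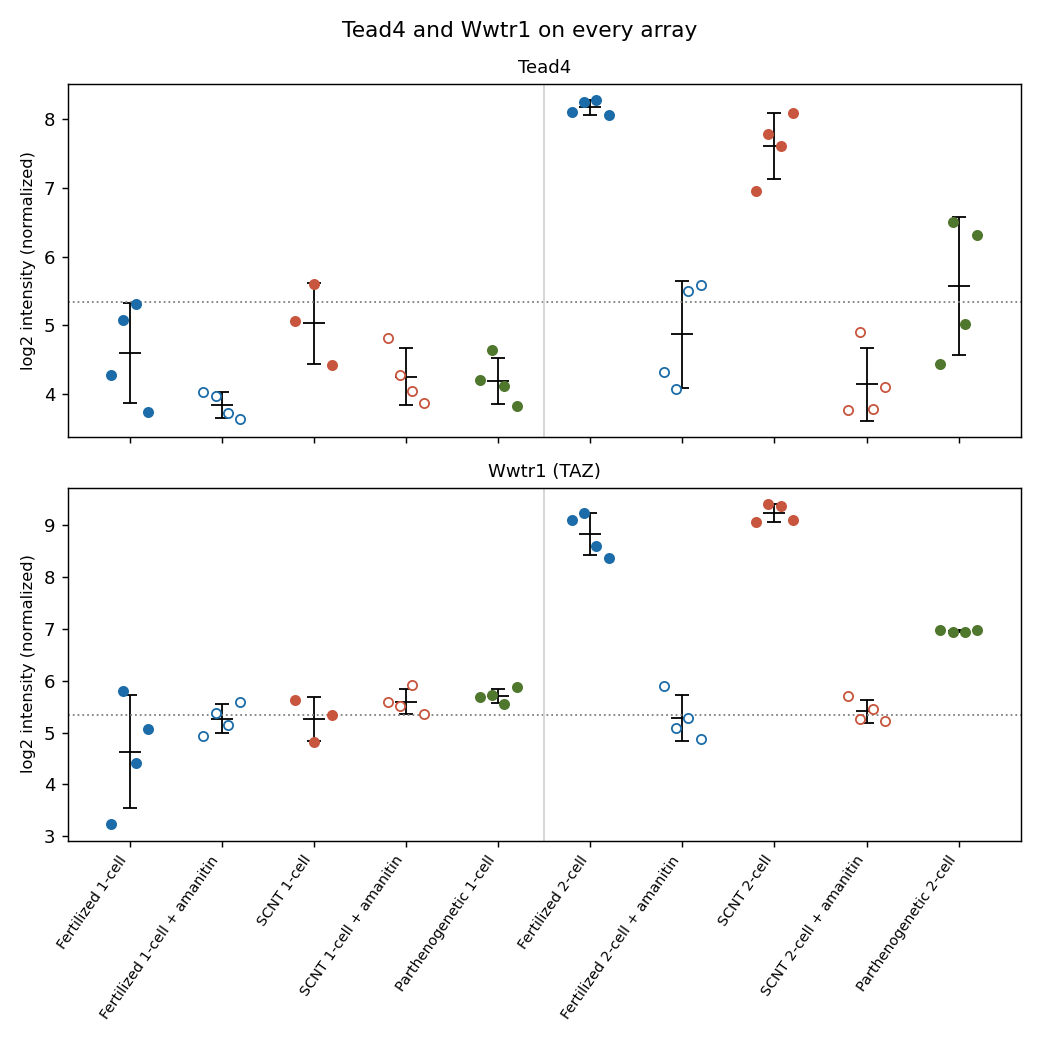
Normalized log2 intensity (y axes) of Tead4 and Wwtr1 on each of the 39 arrays in the 10 groups (x axis), with open points for amanitin; bars are the mean ± SD of 4 arrays (3 for SCNT 1-cell) and the dotted line is the overall median of 5.34. The untreated fertilized and SCNT 2-cell arrays sit above all others in both panels, and the parthenogenetic 2-cell arrays lie between them and the rest for Wwtr1.

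Tead4 is the TEAD gene needed for trophectoderm. On the 4 fertilized 1-cell arrays it read 4.27, 5.07, 5.31 and 3.74, and on the 4 fertilized 2-cell arrays 8.11, 8.25, 8.28 and 8.06. The 2-cell arrays were tightly placed and far above every 1-cell array. The rise was 3.58 log2 units (SE 0.39, 11.93-fold, adjusted p = 1.59e-10 by limma). SCNT embryos went from 5.06, 5.60 and 4.42 to 6.95, 7.79, 7.60 and 8.09, again without overlap, a rise of 2.58 (SE 0.42, adjusted p = 1.13e-06). A difference between the rises in SCNT and fertilized embryos was not called (interaction -0.99, 95% confidence interval -2.15 to 0.16, adjusted p = 0.255).

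Parthenogenetic embryos read 4.20, 4.63, 4.11 and 3.82 for Tead4 at the 1-cell stage and 4.44, 6.50, 5.01 and 6.31 at the 2-cell stage. The 2-cell arrays were split, 2 of them above 6 and 2 nearer the 1-cell values, and the stages overlapped. The rise was 1.38 (SE 0.39, adjusted p = 0.00305), and it was smaller than in fertilized embryos (interaction -2.20, SE 0.55, adjusted p = 0.00143). At the 2-cell stage parthenogenetic embryos lay below fertilized ones (difference -2.61, SE 0.39, 6.096-fold, adjusted p = 3.81e-07), with no overlap of arrays. SCNT lay above parthenogenetic embryos by 2.04 (SE 0.39, adjusted p = 2.07e-05), also without overlap. SCNT and fertilized 2-cell embryos overlapped and differed by -0.57 (95% confidence interval -1.35 to 0.22, adjusted p = 0.307). Fitted on the compared arrays alone, that difference was called (adjusted p = 0.0487).

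With amanitin, Tead4 read 4.32, 4.07, 5.49 and 5.58 in fertilized and 3.77, 4.89, 3.79 and 4.10 in SCNT 2-cell embryos. None of these arrays reached the lowest untreated fertilized or SCNT 2-cell array. The amanitin effect was -3.31 (SE 0.39, adjusted p = 9.63e-10) in fertilized and -3.47 (SE 0.39, adjusted p = 2.4e-10) in SCNT embryos. Amanitin-treated fertilized embryos still rose by 1.03 between the stages (SE 0.39, adjusted p = 0.0322). That call was lost with each array centred on its median (0.89, adjusted p = 0.0707), with the higher constant (0.62, adjusted p = 0.0558), with its probe sets averaged (0.75, adjusted p = 0.0738) and on its second probe set (0.47, adjusted p = 0.318). It was also lost without replicate 3 or 4 of the treated 1-cell arrays (0.99, adjusted p = 0.0651, and 0.95, adjusted p = 0.0749) or of the treated 2-cell arrays (0.82, adjusted p = 0.122, and 0.79, adjusted p = 0.135).

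The second Tead4 probe set, 1426337_a_at, gave the same order of fertilized, SCNT and treated 2-cell embryos. It was above the overall median on 8 arrays, the 4 fertilized and 4 SCNT untreated 2-cell arrays. It passed the filter only through these groups, where it is high, so its order is a description and no separate support. It read 8.19, 8.02, 7.57 and 7.80 in fertilized and 6.50, 7.09, 7.26 and 7.68 in SCNT 2-cell embryos, and at most 5.27 on every other array. Its rise was 4.27 (SE 0.36, adjusted p = 1.19e-13) in fertilized embryos and 3.54 (SE 0.38, adjusted p = 1.6e-10) in SCNT embryos. It was lower in parthenogenetic than in fertilized 2-cell embryos (difference -3.05, SE 0.36, adjusted p = 2.2e-09). Its amanitin effects were -3.60 and -3.55 in fertilized and SCNT 2-cell embryos, both called. It was not called between the stages of parthenogenetic embryos, which read 3.27, 5.03, 4.47 and 4.41 and then 4.33, 5.06, 4.89 and 5.10.

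Tead1, which acts alongside Tead4 in many tissues, was above the overall median on all 39 arrays. Its probe set with the highest mean read 6.46, 6.62, 6.81 and 6.85 in fertilized 2-cell embryos and 7.75, 6.60, 7.39 and 7.28 with amanitin. In SCNT 2-cell embryos it read 6.93, 6.78, 6.80 and 6.71, and 7.59, 7.77, 7.57 and 7.88 with amanitin. The median amanitin effect over all genes was 0.27 in fertilized and 0.28 in SCNT 2-cell embryos. Tead1 was higher with amanitin by 0.57 (SE 0.18, adjusted p = 0.00457) in fertilized embryos, whose groups overlapped. In SCNT embryos, whose groups did not, Tead1 was higher by 0.90 (SE 0.18, adjusted p = 2.32e-05). Its lowest group mean was that of parthenogenetic 2-cell embryos, which read 6.31, 6.26, 6.52 and 5.88. These arrays overlapped those of fertilized 2-cell and of parthenogenetic 1-cell embryos. On average they lay below their 1-cell stage (difference -0.56, SE 0.18, adjusted p = 0.0076). Without quantile normalization that difference was -0.23 (adjusted p = 0.268). The difference of -0.44 from fertilized 2-cell embryos (adjusted p = 0.0378) was lost without quantile normalization (-0.34, adjusted p = 0.107), on the compared arrays alone (adjusted p = 0.0783), and without fertilized replicate 3 (-0.40, adjusted p = 0.0926) or 4 (-0.39, adjusted p = 0.103) or parthenogenetic replicate 2 (-0.45, adjusted p = 0.0571) or 4 (-0.32, adjusted p = 0.171).

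A second Tead1 probe set, 1423434_at, disagreed in SCNT embryos. It read 7.60, 7.59, 7.85 and 7.13 in SCNT 2-cell embryos, above every array of every other group except 1 amanitin-treated SCNT 2-cell array at 7.16. There it was higher than at the 1-cell stage by 1.33 (SE 0.23, adjusted p = 2.87e-06) and higher than in fertilized 2-cell embryos by 1.15 (SE 0.21, adjusted p = 3.93e-05). Amanitin lowered it in SCNT embryos (difference -1.15, SE 0.21, adjusted p = 8.02e-06), where the other probe set was higher, and in fertilized embryos its amanitin effect was not called (0.30, adjusted p = 0.217). Both probe sets were lower in parthenogenetic 2-cell embryos than at the 1-cell stage (for this one, difference -0.85, adjusted p = 9e-04).

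Tead2, the TEAD gene long known from the preimplantation embryo, was above the overall median on 29 of 39 arrays. It read 4.29, 5.77, 5.31 and 5.17 in fertilized 2-cell embryos, 6.17, 6.27, 6.77 and 6.22 in SCNT and 6.23, 6.47, 6.08 and 6.47 in parthenogenetic ones. No fertilized array reached the other 2 groups. SCNT exceeded fertilized embryos by 1.22 (SE 0.36, adjusted p = 0.0074) and parthenogenetic ones did so by 1.18 (SE 0.36, adjusted p = 0.00603). Without fertilized replicate 1 the SCNT difference was 0.94 (adjusted p = 0.0558). The interval of the difference between SCNT and parthenogenetic 2-cell embryos ran from -0.68 to 0.77 (adjusted p = 0.928).

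Amanitin had no called effect on Tead2 at the 2-cell stage. With amanitin it read 5.08, 5.51, 6.65 and 5.53 in fertilized and 7.33, 6.49, 6.27 and 6.42 in SCNT embryos. In treated SCNT embryos it rose between the stages by 1.51 (SE 0.36, adjusted p = 0.000411). At the 1-cell stage it read 4.48, 4.79, 3.79 and 5.65 in fertilized and 6.12, 5.37, 5.40 and 5.78 in parthenogenetic embryos, which were higher by 0.99 (adjusted p = 0.046), with overlap. That call was lost in 7 of the 8 fits without 1 of the 8 compared arrays, and the difference without fertilized replicate 3 was 0.69 (adjusted p = 0.227). It was kept without fertilized replicate 4. It was also lost as deposited (0.81, adjusted p = 0.0807), with the higher constant (0.66, adjusted p = 0.0584), with no filter (adjusted p = 0.0601), with the replicate block (adjusted p = 0.0528) and on the compared arrays alone (adjusted p = 0.0782).

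Tead3 was the steadiest TEAD gene by calls, with 2 in 17 comparisons. It read 6.27 to 6.60 in fertilized, 5.88 to 6.60 in SCNT and 6.50 to 6.91 in parthenogenetic 2-cell embryos, and 6.76, 7.18, 6.80 and 7.19 in fertilized 2-cell embryos with amanitin. Those treated arrays lay above the untreated fertilized 2-cell arrays, by 0.51 on average (SE 0.22, adjusted p = 0.0387). The call was lost without untreated replicate 1 (0.44, adjusted p = 0.104) or 3 (0.51, adjusted p = 0.0594) or treated replicate 2 (0.44, adjusted p = 0.102) or 4 (0.44, adjusted p = 0.103), and under both other scalings (0.37 in each, adjusted p = 0.123 as deposited and 0.105 with median centring). SCNT lay below parthenogenetic 2-cell embryos (difference -0.50, adjusted p = 0.048), a call that ended in 6 of the 8 fits without 1 of those arrays, with values from -0.40 to -0.51, and under both other scalings (-0.39, adjusted p = 0.123, as deposited and -0.41, adjusted p = 0.0857, with median centring), with no filter (adjusted p = 0.0594) and on the compared arrays alone (adjusted p = 0.0528).

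Wwtr1 encodes TAZ, the second coactivator. On fertilized arrays it read 3.23, 5.80, 4.42 and 5.06 at the 1-cell stage and 9.10, 9.25, 8.61 and 8.38 at the 2-cell stage. The 1-cell values were scattered and dim, and the 2-cell values lay clear of them. The rise was 4.20 (SE 0.30, 18.43-fold, adjusted p = 1.25e-15). SCNT embryos went from 5.64, 4.81 and 5.35 to 9.07, 9.41, 9.38 and 9.11, a rise of 3.98 (SE 0.32, adjusted p = 6.66e-14). The 2 kinds of embryo overlapped at the 2-cell stage and differed by 0.41 (95% confidence interval -0.19 to 1.02, adjusted p = 0.339).

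Parthenogenetic embryos read 5.68, 5.73, 5.55 and 5.88 for Wwtr1 at the 1-cell and 6.98, 6.94, 6.94 and 6.98 at the 2-cell stage. The 4 2-cell arrays were nearly equal and lay between the 1-cell arrays and the other untreated 2-cell arrays, touching neither. The rise of 1.25 (SE 0.30, adjusted p = 0.000555) was smaller than in fertilized embryos (interaction -2.95, SE 0.42, adjusted p = 4.16e-07). At the 2-cell stage the difference was -1.87 from fertilized embryos (SE 0.30, adjusted p = 1.48e-06), and SCNT exceeded parthenogenetic embryos by 2.28 (SE 0.30, adjusted p = 2.04e-08). At the 1-cell stage parthenogenetic embryos were above fertilized ones by 1.08 (adjusted p = 0.00737), with overlap, and without fertilized replicate 1, the array at 3.23, by 0.62 (adjusted p = 0.0849). That call was also lost with the probe sets averaged (0.45, adjusted p = 0.211), on the compared arrays alone (adjusted p = 0.108) and on both further probe sets (0.28, adjusted p = 0.669, and -0.0012, adjusted p = 0.999).

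Amanitin-treated 2-cell arrays read 5.91, 5.09, 5.28 and 4.88 in fertilized and 5.71, 5.27, 5.46 and 5.22 in SCNT embryos, within 1 unit of the overall median. The amanitin effect on Wwtr1 was -3.54 (SE 0.30, adjusted p = 1.71e-13) and -3.83 (SE 0.30, adjusted p = 1.29e-14). No change between the stages was called in treated embryos (0.02, 95% confidence interval -0.58 to 0.63, in fertilized, and -0.19, interval -0.79 to 0.42, in SCNT embryos).

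Wwtr1 has 2 further probe sets that passed the filter. They were above the overall median on 13 and 12 arrays, nearly all of them untreated 2-cell arrays. Both passed the filter only through the untreated 2-cell groups, where they are high. Their rises and amanitin effects therefore describe them and are no separate support. Probe set 1437155_a_at rose by 4.62 in fertilized, 3.99 in SCNT and 2.20 in parthenogenetic embryos, all called. Probe set 1417818_at read 7.46, 7.33, 6.85 and 7.52 in fertilized 2-cell embryos but 6.34, 5.36, 6.07 and 5.70 in SCNT and 6.07, 5.79, 4.87 and 5.50 in parthenogenetic ones. It rose by 2.71 in fertilized (adjusted p = 4.72e-07) and 1.21 in SCNT embryos (adjusted p = 0.0205), and its change in parthenogenetic embryos was not called (0.98, adjusted p = 0.0517). On this probe set SCNT lay below fertilized embryos (difference -1.42, SE 0.42, adjusted p = 0.00837), unlike on the other 2, and SCNT against parthenogenetic 2-cell embryos was not called (0.31, adjusted p = 0.572). Its amanitin effect was -3.52 in fertilized and -1.07 in SCNT embryos, and these differed (interaction 2.45, SE 0.59, adjusted p = 0.000972).

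Some values of the series moved with the rise of Tead4 and Wwtr1. The ribosomal 18S control probe sets averaged 10.25, 10.81 and 11.22 on the log2 scale, before quantile normalization, in untreated fertilized, SCNT and parthenogenetic 2-cell embryos, and 12.72 to 13.25 in the other 7 groups. The 16 measured cumulus cell markers summed to 5254 to 6541 intensity units on fertilized and 5273 to 7146 on SCNT 2-cell arrays, to 2023 to 2343 on parthenogenetic ones and to 880.4 to 1540 elsewhere. Of the 16, 6 in fertilized, 8 in SCNT and 7 in parthenogenetic 2-cell embryos had a group mean above the overall median. Most of the sum came from Amhr2, Gja1 and Nr5a2, while Has2, Ptx3, Tnfaip6, Star and Vcan had group means of 3.61 to 5.20 on the log2 scale in the 3 untreated 2-cell groups, under the overall median. The part of either measure in the members' results was not tested.

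The promoter of Wwtr1 is shown because GGAATG, the letters TEAD proteins bind, stand in it. Wwtr1 is one of the members that rose between the stages of fertilized embryos. RefSeq promoter windows (GRCm38.p6, the 250 bases before the start site that lies farthest upstream) were matched by symbol for 8 of the 10 members. GGAATG was searched on both strands, so that it appears below as GGAATG or, from the other strand, as CATTCC. It stood in 4 of the 8, those of Wwtr1, Yap1, Tead3 and Amotl2, and not in the windows of Tead2, Lats1, Lats2 and Cdx2. Of all 32851 windows, which cover every listed start site of 27025 genes, 12.64% held it. The members were counted on a single start site each, so the 2 shares are in unlike units. The Wwtr1 window, chr3:57575911-57576160 on the minus strand, reads 5′ to 3′ with the match in capitals, 136 bases before the start site.
Wwtr1: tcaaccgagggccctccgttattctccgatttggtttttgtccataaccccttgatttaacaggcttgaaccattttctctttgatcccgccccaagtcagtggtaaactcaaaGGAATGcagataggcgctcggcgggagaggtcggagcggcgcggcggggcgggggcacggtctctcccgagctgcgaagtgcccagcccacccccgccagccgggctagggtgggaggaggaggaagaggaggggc
The 40 bases round the match are given for the other 3: chr9:8004715-8004754 (minus strand) for Yap1, chr17:28350965-28351004 (minus strand) for Tead3 and chr9:102717722-102717761 (plus strand) for Amotl2.
Yap1: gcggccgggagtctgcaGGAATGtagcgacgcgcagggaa
Tead3: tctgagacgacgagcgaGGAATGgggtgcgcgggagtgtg
Amotl2: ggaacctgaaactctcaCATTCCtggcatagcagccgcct
The match lies 141, 182 and 65 bases before the start site in Yap1, Tead3 and Amotl2. From 1 to 2 cells of fertilized embryos, Wwtr1 rose by 4.20, Yap1 differed by 0.20 (-0.35 as deposited), Tead3 by -0.17 (adjusted p = 0.52), and Amotl2 was dim in both stages. A match describes letters and not a binding site.

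Yap1 encodes the main coactivator of this pathway. Its probe set with the highest mean lay at the 99.99th percentile of mean values over all probe sets, and read 13.07 to 13.58 on all 39 arrays after quantile normalization. That step gives every array the same set of values, so such a reading follows the rank of the probe set. The same values recur: 13.41 was the highest in fertilized 1-cell, parthenogenetic 1-cell and treated fertilized 2-cell embryos. The SE and adjusted p of its calls, which the member counts include, thus describe small steps of rank and not intensity. Fertilized 2-cell embryos read 13.58, 13.55, 13.49 and 13.52, above the fertilized 1-cell values of 13.41, 13.36, 13.22 and 13.37. SCNT 2-cell embryos read 13.33, 13.36, 13.20 and 13.07, below them. The differences called were 0.20 for the change in fertilized embryos (SE 0.05, adjusted p = 0.00183), -0.16 for amanitin in fertilized 2-cell embryos (adjusted p = 0.0101), -0.30 for SCNT against fertilized 2-cell embryos (adjusted p = 3.04e-05) and -0.22 for SCNT against parthenogenetic 2-cell embryos (adjusted p = 0.000792).

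The direction of the change in Yap1 depended on the scaling. Without quantile normalization the change in fertilized embryos was -0.35 (adjusted p = 0.0053), and with each array centred on its median it was -0.49 (adjusted p = 0.000752). The deposited intensity was 9815 to 15369 on fertilized 1-cell arrays and 8682 to 9668 on 2-cell arrays, which did not overlap. The amanitin effect turned as well, to 0.38 under both scalings (adjusted p = 0.0023 and 0.00822). In SCNT 2-cell embryos the amanitin effect went from 0.09, not called, to 1.06 as deposited (adjusted p = 1.63e-11) and 1.01 with median centring (adjusted p = 2.65e-09). The change between SCNT stages went from -0.09, not called, to -0.60 (adjusted p = 2.34e-05) and -0.92 (adjusted p = 1.36e-07). SCNT against fertilized and against parthenogenetic 2-cell embryos kept their sign under both.

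The second Yap1 probe set, 1416487_a_at, moved more and differently. It read 10.07, 9.84, 9.85 and 10.14 in fertilized 1-cell embryos and 10.58, 10.55, 10.52 and 10.69 at the 2-cell stage, a rise of 0.61 (SE 0.08, adjusted p = 1.18e-08). SCNT 2-cell embryos had the highest values of all, 11.22, 11.10, 11.28 and 11.27, above every array of every other group. They exceeded fertilized embryos by 0.63 (SE 0.08, adjusted p = 3.69e-08) and parthenogenetic ones by 0.37 (adjusted p = 0.000145), where the first probe set was lower. Amanitin lowered SCNT 2-cell embryos to 10.48, 10.36, 10.36 and 10.27 (difference -0.85, SE 0.08, adjusted p = 2.09e-12), and raised fertilized ones by 0.25 (adjusted p = 0.0061). The amanitin effects differed between origins (interaction -1.09, SE 0.11, adjusted p = 2.3e-10), and the interaction of the first probe set had the opposite sign, 0.25 (adjusted p = 0.0081). The 2 probe sets of Yap1 thus ordered the groups differently.

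**Figure D2:**
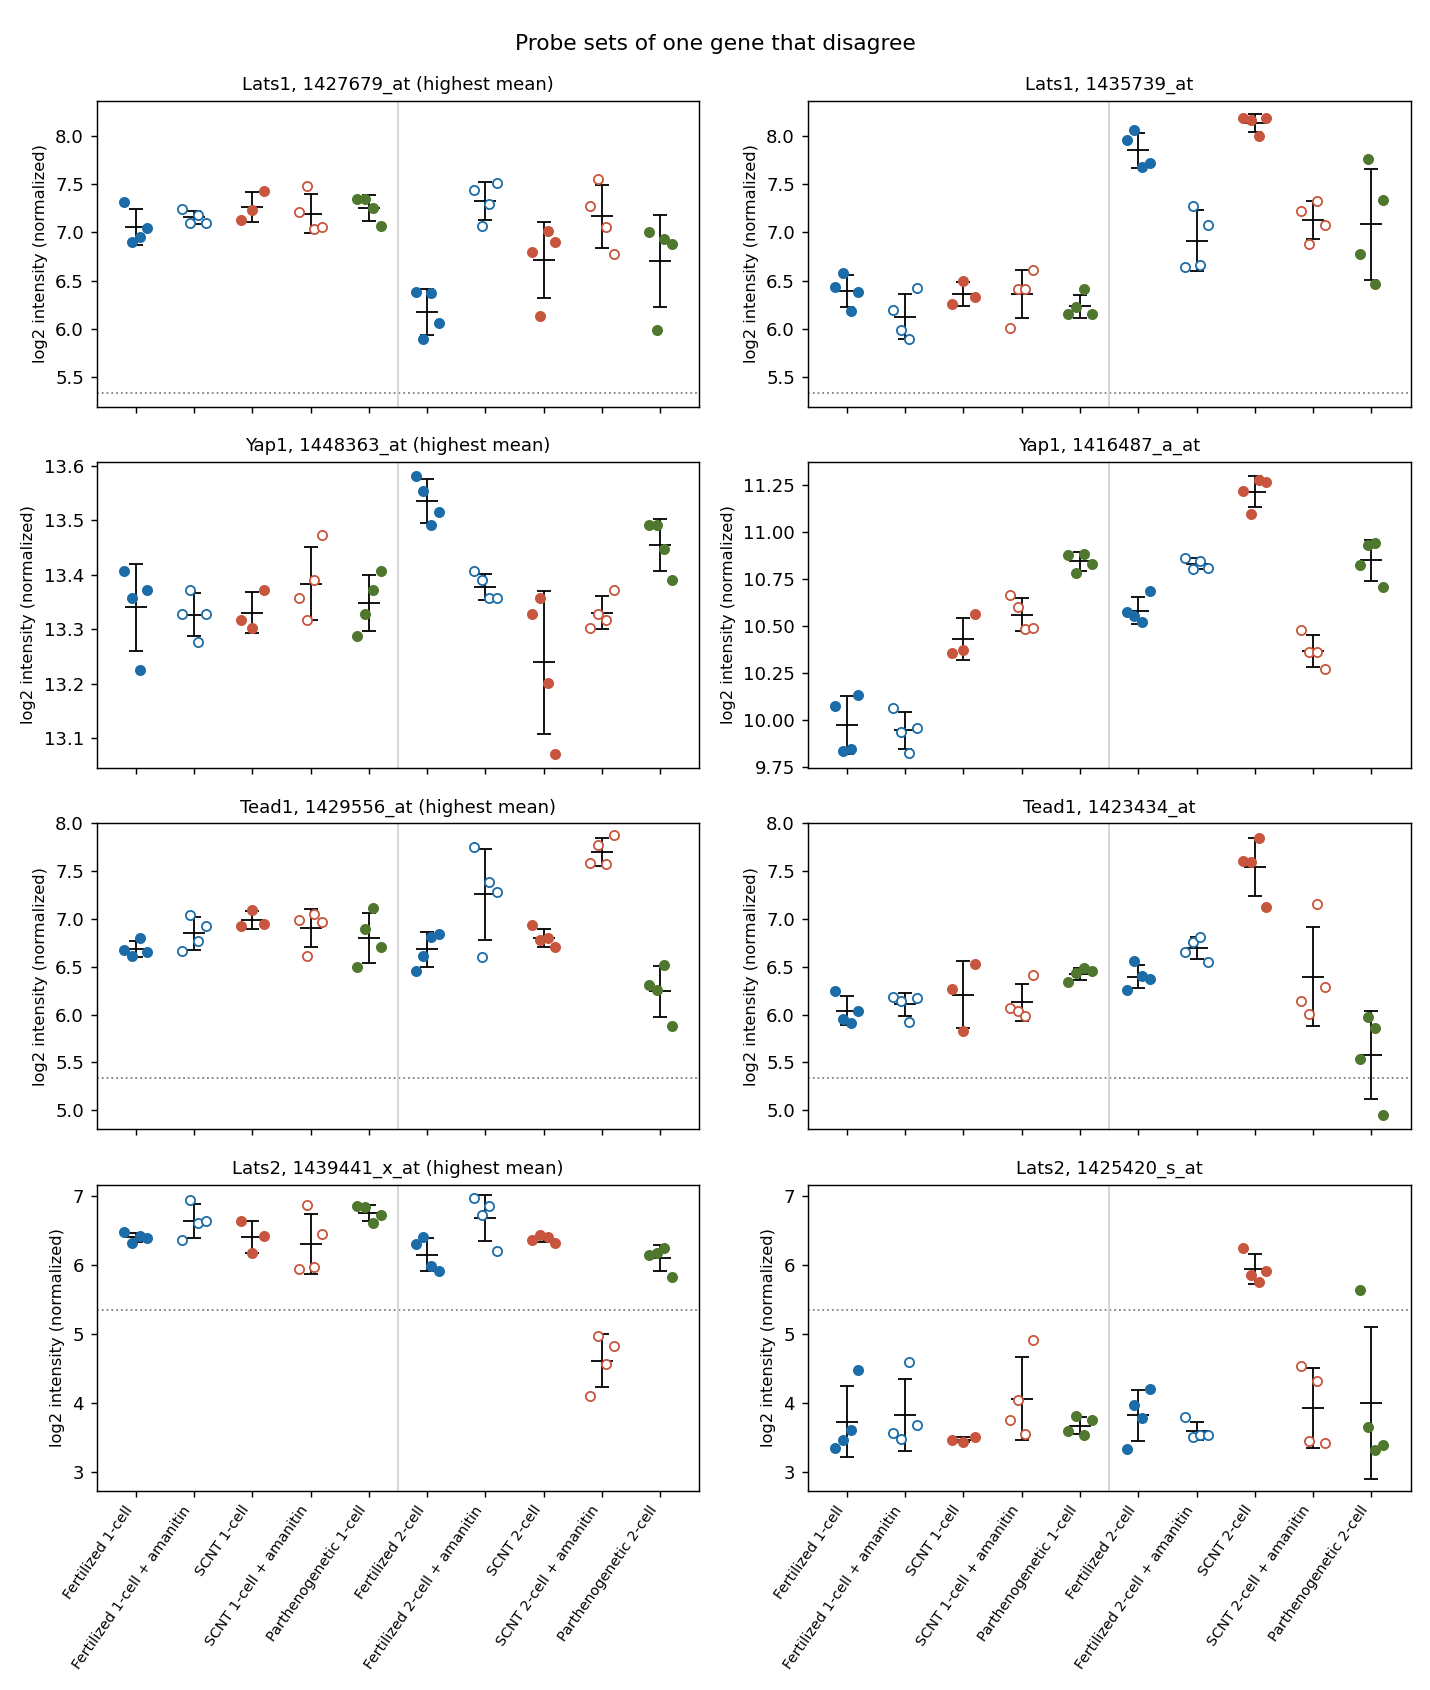
Normalized log2 intensity (y axes) on each array by group (x axis) for 2 probe sets each of Lats1, Yap1, Tead1 and Lats2, with open points for amanitin, mean ± SD bars and, except for Yap1, the overall median as a dotted line. For Lats1 the fertilized 2-cell arrays read 5.90 to 6.38 on the left and 7.67 to 8.05 on the right, below and above their 1-cell arrays.

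Lats1 encodes a kinase that restrains YAP1 and TAZ. Its probe set 1427679_at read 7.31, 6.89, 6.95 and 7.05 in fertilized 1-cell embryos, 6.38, 5.90, 6.37 and 6.06 at the 2-cell stage and 7.44, 7.07, 7.29 and 7.51 at the 2-cell stage with amanitin. The untreated 2-cell arrays lay below both other groups. It fell by 0.87 log2 units (SE 0.20, adjusted p = 0.00016), and amanitin-treated embryos were higher by 1.15 (SE 0.20, adjusted p = 2.15e-06). Probe set 1435739_at went the other way: it read 6.43, 6.58, 6.18 and 6.38, then 7.95, 8.05, 7.67 and 7.72, and 6.64, 7.27, 6.66 and 7.08 with amanitin. On it the change was 1.45 (SE 0.19, adjusted p = 2.24e-08) and the amanitin effect -0.93 (SE 0.19, adjusted p = 6e-05).

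The opposition held in SCNT embryos. There 1427679_at changed by -0.55 between the stages (adjusted p = 0.0234) and 1435739_at by 1.77 (SE 0.21, adjusted p = 1.57e-09). In parthenogenetic embryos the values were -0.55 (adjusted p = 0.0179) and 0.85 (adjusted p = 0.000342). The smaller calls of 1427679_at were lost without single arrays: the change was -0.36 (adjusted p = 0.148) without SCNT 2-cell replicate 2, -0.46 (adjusted p = 0.0998) without SCNT 1-cell replicate 4 and -0.31 (adjusted p = 0.174) without parthenogenetic 2-cell replicate 2. Without quantile normalization these changes were -0.35 (adjusted p = 0.13) and -0.33 (adjusted p = 0.122). The mean of both probe sets rose in fertilized embryos, by 0.29 (adjusted p = 0.0302). The direction of Lats1 therefore depends on the probe set, and which one the rule picks depends on the scale: 1427679_at has the higher mean of log2 values (6.99 against 6.87) and 1435739_at the higher mean intensity (125.6 against 125.0).

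Lats2 encodes the second LATS kinase and has 6 probe sets of its own on the array, of which 3 passed the filter. The one with the highest mean, 1439441_x_at, read 5.82 to 6.96 on the 35 arrays of 9 groups. In SCNT 2-cell embryos with amanitin it read 4.10, 4.97, 4.57 and 4.82, below all of them. Untreated SCNT 2-cell embryos read 6.36, 6.43, 6.40 and 6.32, so that the amanitin effect was -1.76 (SE 0.20, 3.383-fold, adjusted p = 4.6e-10). In fertilized 2-cell embryos it was 0.53 (adjusted p = 0.0202), and the effects differed (interaction -2.29, SE 0.29, adjusted p = 1.9e-08), though not on 1419678_at (-1.15, adjusted p = 0.194). On 1439441_x_at treated SCNT embryos also fell between the stages (difference -1.69, SE 0.20, adjusted p = 2.25e-09). That difference was -0.72 with the probe sets averaged, and it was not called on 1419678_at (-0.34, adjusted p = 0.583) or 1425420_s_at (-0.14, adjusted p = 0.795). Parthenogenetic embryos also fell between the stages on 1439441_x_at (difference -0.66, called). That call was lost as deposited (-0.32, adjusted p = 0.217) and with the probe sets averaged (-0.21, adjusted p = 0.46). It was absent on 1419678_at (-0.30, adjusted p = 0.649) and 1425420_s_at (0.33, adjusted p = 0.513). The positive amanitin effect in fertilized embryos was not called without untreated replicate 3 (0.48, adjusted p = 0.0578) or 4 (0.45, adjusted p = 0.0693) or treated replicate 1 (0.44, adjusted p = 0.0759) or 3 (0.48, adjusted p = 0.0563), nor under both other scalings (0.44 in each, adjusted p = 0.0793 as deposited and 0.0676 with median centring), with the probe sets averaged (0.07, adjusted p = 0.807) or on the 2 further probe sets (-0.10, adjusted p = 0.865, and -0.23, adjusted p = 0.624). The poly(A) and hybridization controls were highest in these treated SCNT 2-cell embryos, at 10.36 and 10.88 on the log2 scale, and their part in the low Lats2 values was not tested.

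The Lats2 probe set 1425420_s_at was dim on most arrays but read 6.25, 5.86, 5.75 and 5.91 in SCNT 2-cell embryos. Elsewhere it stayed at or under 4.91 except for parthenogenetic 2-cell replicate 1 at 5.64. SCNT exceeded fertilized 2-cell embryos by 2.12 (SE 0.39, adjusted p = 3.39e-05) and their own 1-cell stage by 2.47 (SE 0.42, adjusted p = 2.28e-06), while 1439441_x_at differed by 0.23 (adjusted p = 0.459) and -0.03 (adjusted p = 0.919). With amanitin it was lower in SCNT 2-cell embryos (difference -2.01, SE 0.39, adjusted p = 1.53e-05), as on 1439441_x_at. The third, 1419678_at, was lower too (difference -1.26, adjusted p = 0.0202). A lower Lats2 reading with amanitin in SCNT 2-cell embryos was thus called on 1439441_x_at and 1419678_at. Probe set 1425420_s_at was above the overall median on 5 arrays, 4 of them untreated SCNT 2-cell arrays. It passed the filter only through that group, so its differences from that group describe it and are no separate support. The Lats2 probe sets that failed the filter were not tested.

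Amotl2, an angiomotin that holds YAP1 at junctions, was above the overall median on 1 of 39 arrays, an SCNT 2-cell array at 5.36. Its values ran from 3.97 to 5.36. Cdx2, the transcription factor of trophectoderm, was above the overall median on 6 arrays spread over 5 groups and ran from 3.28 to 5.83. It was called in none of the 17 comparisons, and its second probe set stayed between 2.87 and 4.03. In fertilized embryos Cdx2 read 4.88, 5.46, 5.83 and 3.28 and then 4.47, 4.50, 5.44 and 4.17, a difference of -0.22 (95% confidence interval -1.14 to 0.71, adjusted p = 0.712). For both genes a level was not detectable above the dim part of the array, which does not show that the RNA was absent.

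**Figure D3:**
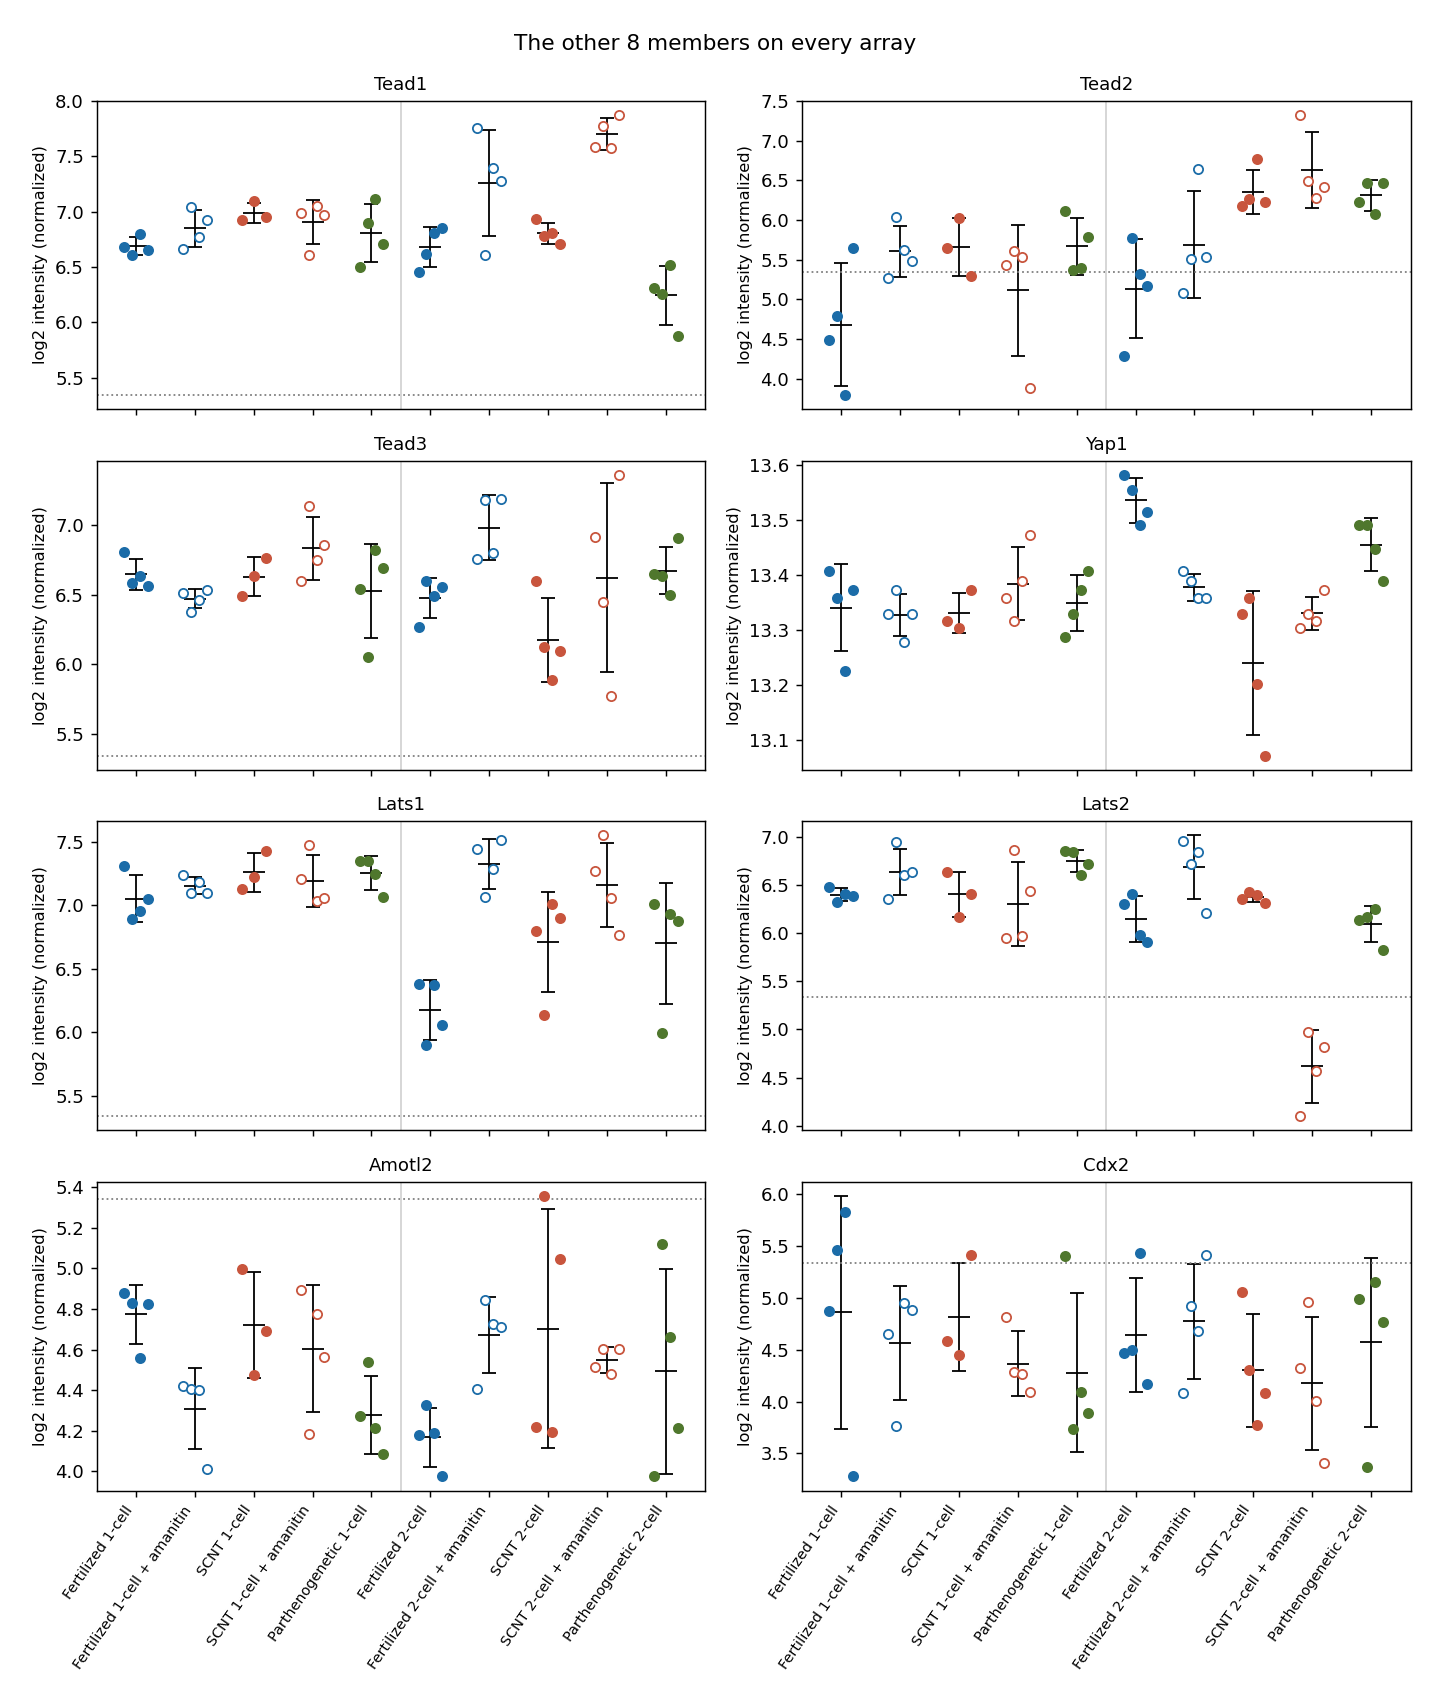
Normalized log2 intensity (y axes, each with its own range) of the other 8 members on each of the 39 arrays by group (x axis), with open points for amanitin, mean ± SD bars and the overall median as a dotted line except for Yap1. The 4 amanitin-treated SCNT 2-cell arrays of Lats2 sit between 4.10 and 4.97, below all others, and Amotl2 and Cdx2 lie mostly under the line.

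In the amanitin effect at the 2-cell stage, 7 of the 9 tested members were called in fertilized embryos and 5 in SCNT embryos, where 64.3% and 69.2% of all genes were called. The median effect over all genes was 0.27 and 0.28, against 0.51 and 0.09 for the 9 members. Tead4 and Wwtr1 were lower with amanitin in both kinds of embryo. Lats2 was lower in SCNT embryos. In fertilized embryos it was higher on its probe set with the highest mean, with the interaction given above. That fertilized call was lost under both other scalings, with the probe sets averaged and on both further probe sets. At the 1-cell stage no member was called by limma in fertilized (background 6.03%) or SCNT embryos (0.429%). At an unadjusted p under 0.05 these counts were 2 and 0. In the interaction of amanitin with origin 3 members were called at the 2-cell stage (38.9%), Yap1, Lats1 and Lats2. At the 1-cell stage none was (2.41%), with 1 at an unadjusted p under 0.05. The Lats1 interaction, -0.70 (adjusted p = 0.041), lost its call in 10 of the 16 fits without 1 of the compared arrays, with values from -0.57 to -0.72, and on its second probe set (-0.07, adjusted p = 0.876).

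Between origins at the 1-cell stage, no member was called for SCNT against fertilized (background 5.56%) or parthenogenetic embryos (14.2%), with 1 and 0 at an unadjusted p under 0.05 by limma. Parthenogenetic against fertilized 1-cell embryos gave 2 calls (20.4%), Tead2 and Wwtr1, given above. At the 2-cell stage SCNT against fertilized embryos gave 3 (30.6%), Tead2, Yap1 and Lats1. Parthenogenetic against fertilized gave 5 (47.4%), Tead1, Tead2, Tead4, Wwtr1 and Lats1, and SCNT against parthenogenetic 5 (54.5%), Tead1, Tead3, Tead4, Yap1 and Wwtr1. These 3 comparisons share arrays. On 1427679_at, Lats1 exceeded fertilized 2-cell embryos by 0.54 in SCNT (adjusted p = 0.0326) and by 0.53 in parthenogenetic embryos (adjusted p = 0.024), each with overlap. Each call was lost in 5 of the 8 fits without 1 of the compared arrays, with values of 0.44 to 0.51 and 0.42 to 0.49. On 1435739_at the difference was 0.28 in SCNT (adjusted p = 0.319) and turned to -0.77 in parthenogenetic embryos (adjusted p = 0.00113). Under amanitin, SCNT against fertilized embryos gave no call at the 1-cell stage (21.5%, with 0 at an unadjusted p under 0.05) and 3 at the 2-cell stage (43.2%). Of these Lats2 differed by -2.07 (SE 0.20, adjusted p = 3.4e-11). It differed by -0.73 with the probe sets averaged, and was not called on 1419678_at (-0.45, adjusted p = 0.494) or 1425420_s_at (0.34, adjusted p = 0.529). The differences of Tead1 (0.44, adjusted p = 0.0397) and Tead2 (0.94, adjusted p = 0.0322) were each lost in 4 of the 8 fits without 1 of the compared arrays, with values of 0.23 to 0.45 and 0.70 to 0.89. Both were also lost with median centring (0.22, adjusted p = 0.344, and 0.82, adjusted p = 0.0606). The change between the stages differed from that of fertilized embryos in 1 member for SCNT (19%), Yap1, and in 2 for parthenogenetic embryos (35.4%), Tead4 and Wwtr1.

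**Figure D4:**
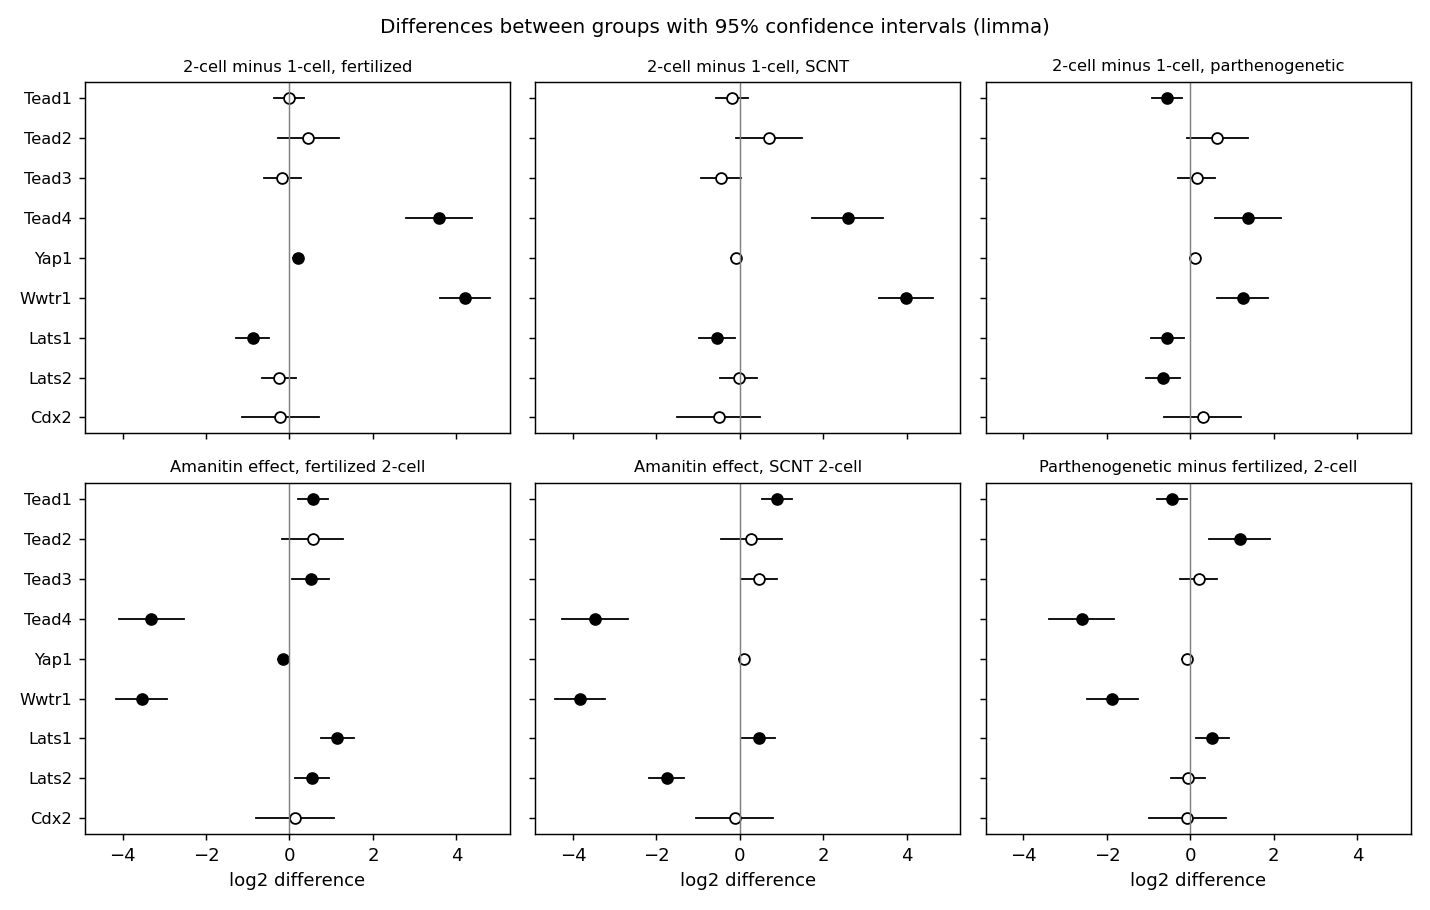
Log2 differences (x axes) of the 9 tested members (y axes) in 6 comparisons, with 95% confidence intervals of the limma fit; filled points are called at an adjusted p under 0.05 over 14916 genes. Tead4 and Wwtr1 stand at 3.58 and 4.20 in the change of fertilized embryos, at -3.31 and -3.54 for amanitin, and at -2.61 and -1.87 in parthenogenetic against fertilized 2-cell embryos.

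Each gene of the lists that follow was tested on its probe set with the highest mean only. Whether its difference holds on other probe sets or under other scalings was not tested. The regulators upstream of YAP1 and TAZ moved in both directions. Of 25 such genes tested, 8 rose and 10 fell from the 1-cell to the 2-cell stage of fertilized embryos, where 25.8% and 34.2% of all genes did so; their median difference was 0.11, against -0.12 over all genes. The Hippo scaffold Mob1a, an activator of LATS kinases, rose by 3.58 (SE 0.13, adjusted p = 1.81e-24), and Ajuba, which binds and inhibits LATS, by 3.66 (SE 0.29, adjusted p = 2.86e-14). The kinase Taok3 fell (difference -3.81, SE 0.15) and so did the scaffold Wwc1 (difference -2.62, SE 0.20). With amanitin at the 2-cell stage Ajuba (-4.05) and Mob1a (-3.04) were lower and Taok3 (2.59) and Wwc1 (1.92) higher. Stk4, an upstream kinase of LATS, was lower in parthenogenetic than in fertilized 2-cell embryos (difference -3.06, SE 0.21, adjusted p = 1.86e-15).

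Of 20 genes whose products hold or release YAP1, 6 rose and 8 fell between the stages of fertilized embryos, with a median of -0.25. Over all genes 25.8% rose and 34.2% fell, with a median of -0.12. Strn3, a subunit of a phosphatase complex that counters Hippo kinases, rose by 4.09 (SE 0.21, adjusted p = 2.84e-20), was lower with amanitin (difference -3.55, SE 0.21) and was lower in parthenogenetic 2-cell embryos (difference -1.70, SE 0.21). Btrc, a ubiquitin ligase subunit that targets YAP1, fell (difference -2.57, SE 0.15), and the adaptor genes Ywhab and Ywhag, whose products bind phosphorylated YAP1, fell with differences of -2.43 and -2.29.

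Of 11 other TEAD partners tested, 3 rose and 5 fell between the stages of fertilized embryos, against 25.8% and 34.2% of all genes. With amanitin in fertilized 2-cell embryos 5 were higher and none lower, against 38.6% and 25.8% of all genes. Vgll1, a TEAD cofactor, fell between the stages (difference -2.21, SE 0.38, adjusted p = 2.99e-06), and Max was higher with amanitin by 2.23 (SE 0.20). Of 19 known YAP and TEAD targets of cultured cells, 1 rose and 8 fell between the stages, against 25.8% and 34.2% of all genes. Their median was -0.39 against -0.12. The target that rose was Myc, by 3.71 (SE 0.43, adjusted p = 5.86e-10). It was lower with amanitin (difference -2.88, SE 0.43) and in parthenogenetic 2-cell embryos (difference -2.93, SE 0.43). Tgfb2 fell (difference -2.63, SE 0.10) and Gli2 was lower in parthenogenetic than in fertilized 2-cell embryos (difference -3.56, SE 0.32).

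Of 17 genes of the trophectoderm lineage, 4 rose and 7 fell between the stages of fertilized embryos, with a median of -0.33. Over all genes 25.8% rose and 34.2% fell, with a median of -0.12. Gata3, which acts beside CDX2 downstream of TEAD4, fell (difference -4.11, SE 0.25, adjusted p = 5.68e-18), and it was higher with amanitin by 3.32 (SE 0.25). Klf5 rose by 3.60 (SE 0.18, adjusted p = 8.85e-21) and was lower with amanitin (difference -3.51, SE 0.18). Ets2 was 8.02-fold lower at the 2-cell stage. Tfap2c was lower in SCNT than in fertilized 2-cell embryos (difference -3.53, SE 0.23, adjusted p = 2.38e-15). Each of these lists held genes that rose and genes that fell between the stages of fertilized embryos.

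In the change of SCNT embryos, 26.3% of all genes rose and 34.4% fell. Of the upstream regulators 8 rose and 8 fell, of the YAP1 binders 8 and 9, of the TEAD partners 2 and 4, of the targets 2 and 7 and of the trophectoderm genes 3 and 9, among them Tfap2c (-3.86). In parthenogenetic embryos, where 21.7% of all genes rose and 27.4% fell, these counts were 7 and 10, 5 and 8, 1 and 2, 2 and 5, and 3 and 5. Of the genes called there 44.19% were higher, against 56.61% as deposited and 27.5% with median centring. In the change of SCNT embryos these shares were 43.28%, 50.02% and 37.19%, so both splits depend on the scaling.

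With amanitin, SCNT 2-cell embryos had 39.6% of all genes higher and 29.7% lower. There 14 upstream regulators were higher and 7 lower, and of the targets 8 were higher and 3 lower, with Gli2 at -2.76 and Myc at -2.39. Against fertilized 2-cell embryos, parthenogenetic ones had 26.4% of all genes higher and 21% lower, with 10 upstream regulators higher and 4 lower and 7 trophectoderm genes higher and 3 lower. SCNT had 14.3% higher and 16.3% lower, with 3 upstream regulators higher and 6 lower, among them Map4k5 (-1.69), and 3 trophectoderm genes each way, among them Aqp3 (1.37). The share of called genes that were higher in SCNT was 46.79%, against 53.93% as deposited and 36.18% with median centring. In parthenogenetic embryos that share was 55.73%, against 58.56% as deposited and 49.63% with median centring. The lists' shares lay on both sides of the background.

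Symbols of predicted genes were left out of the ranking that follows. Over the 10 group means, the genes most like Tead4 were Gemin5 (Pearson r 0.99), Wdr81 (0.98) and Trim25 (0.98). Those most like Wwtr1 were Zbtb17 (0.99), Adprhl2 (0.99) and Rpl37a (0.99). For Lats2 they were Nme6 (0.98), Khdc4 (0.97) and Snx27 (0.96). The groups share stages and origins, so these values describe the order of 10 means and carry no test.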

How the data were processed

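The authors deposited 1 linear intensity for each probe set and array. The authors scaled each array to a 2% trimmed mean of 150.0, as the deposited values show; software, background correction and array scanning are not given in the sources used here. Of 40 samples, 39 have values. After 64 control probe sets were set aside, values plus 6.9 (their 20th percentile) were taken as log2 and quantile normalized, since array medians ran from 4.92 to 5.74. A probe set was kept if 4 or more arrays exceeded 5.34, the median of all log2 values. Those listed with 1 gene were used, with the highest mean standing for a gene (14916 genes).

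A limma model (3.58.1, R 4.3.3) of 10 group means was used (trend, 29 residual degrees of freedom) for 17 comparisons and 4 interactions, 2-sided, with Benjamini-Hochberg adjustment within each. The script was tested on simulated data. Further probe sets of a member were tested in a fit of all kept probe sets listed with 1 gene, an alternative chosen after seeing the data. Equal replicate numbers gave no pairing: deviations from group means correlated on average at -0.04 to 0.09 between same-numbered samples of 2 groups (45 pairs of groups). The members and gene lists were chosen with earlier results of these data known. The text names all members, up to 4 called genes of each list by size of difference, and the 3 genes most like a member. Predicted-gene symbols (Gm, Rik, LOC, BC, AI, AU and similar) were left out of the last. Promoters are from RefSeq. Precision is limited by the number of arrays.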

Additional observations from a re-analysis of the deposited data

Results flagged for a closer look

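Of 90 sets of 4 arrays (a member in a group), 4 had 1 array that stood apart from the other 3, and chance gives about 1 in 20. Tead2 read 3.88 on replicate 4 of the amanitin-treated SCNT 1-cell embryos (the others 5.43 to 5.61) and 6.77 on replicate 3 of the SCNT 2-cell embryos (6.17 to 6.27). Lats1 read 5.99 on replicate 2 of the parthenogenetic 2-cell embryos (6.88 to 7.01). Amotl2 read 4.01 on replicate 4 of the amanitin-treated fertilized 1-cell embryos (4.40 to 4.42).

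An effect differed between kinds of embryo, by the interaction in limma, in 6 cases. The change from 1 to 2 cells was smaller in parthenogenetic than in fertilized embryos for Tead4 (-2.20, adjusted p = 0.00143) and Wwtr1 (-2.95, adjusted p = 4.16e-07). For Yap1 that change differed between SCNT and fertilized embryos (-0.29, adjusted p = 0.00783). That call was lost as deposited (-0.25, adjusted p = 0.315), with median centring (-0.43, adjusted p = 0.102), with averaged probe sets (-0.06, adjusted p = 0.707) and on the compared arrays alone (adjusted p = 0.0655), and the second probe set gave 0.18 (adjusted p = 0.349). The amanitin effect at the 2-cell stage differed between SCNT and fertilized embryos for Yap1 (0.25, adjusted p = 0.0081), Lats1 (-0.70, adjusted p = 0.041) and Lats2 (-2.29, adjusted p = 1.9e-08).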

How the results depend on the processing

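Tead4 and Wwtr1 kept their calls in the change from 1 to 2 cells of all 3 kinds of embryo, in both amanitin effects at the 2-cell stage and in parthenogenetic against fertilized 2-cell embryos under every alternative of scaling, constant, filter, probe set mean, weights, block and left-out array. On a further probe set alone, neither Tead4 (0.55, adjusted p = 0.211) nor Wwtr1 (0.98, adjusted p = 0.0517) was called between parthenogenetic stages. Over those alternatives the change in fertilized embryos ran from 2.91 to 3.95 for Tead4 and from 3.49 to 4.67 for Wwtr1. Smaller differences did not hold as well. Of the members' results recomputed without 1 array (each member in each comparison counted for each array left out), 1667 kept their side of the threshold, 65 lost a call, 14 gained one and none reversed. The low signal of Amotl2 and Cdx2 against the dim part of the array limits what could be seen of them. Unless a value or a smaller set of arrays shows it, the cause of a change below was not tested.

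The number of members called (main count first) changed by over 1.5 times as follows. Without quantile normalization it went from 1 to 4 between stages of treated fertilized embryos, from 0 to 1 for amanitin at the fertilized 1-cell stage, from 0 to 2 for treated SCNT against treated fertilized 1-cell embryos, from 0 to 1 in the 1-cell interaction and from 1 to 0 in the stage interaction of SCNT. With median centring it went from 3 to 5 between SCNT stages, from 1 to 0 between stages of treated fertilized embryos, from 0 to 1 and from 3 to 1 for treated SCNT against treated fertilized 1-cell and 2-cell embryos, and from 1 to 0 in the stage interaction of SCNT. With a gene's probe sets averaged it went from 3 to 6 between SCNT stages, from 5 to 3 between parthenogenetic stages, from 1 to 4 between stages of treated fertilized embryos, from 7 to 4 for amanitin in fertilized 2-cell embryos, from 0 to 1 for SCNT against fertilized, SCNT against parthenogenetic and treated SCNT against treated fertilized 1-cell embryos, from 3 to 5 for SCNT against fertilized 2-cell embryos, and from 2 to 4 in the stage interaction of parthenogenetic embryos. With array weights it went from 1 to 3 between stages of treated fertilized embryos and from 3 to 1 for treated SCNT against treated fertilized 2-cell embryos. Fits of the compared arrays alone gave 2 between stages of treated fertilized embryos, 0 for parthenogenetic against fertilized 1-cell and 3 for 2-cell embryos, 1 for treated SCNT against treated fertilized 2-cell embryos and 0 in the stage interaction of SCNT. Over all comparisons between origins they gave 11 calls. For parthenogenetic against fertilized 1-cell embryos 1 member was called in place of 2 with no filter or with the higher constant, and 0 without fertilized 1-cell array 1 and treated SCNT 1-cell array 4 together. With the replicate block it was also 1 in place of 2, since the adjusted p of Tead2 rose to 0.0528; the block changed no other call, and the numbers do not pair the samples.

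Leaving out 1 array gave 0 to 2 calls between stages of treated fertilized embryos, 0 to 1 for amanitin at the fertilized 1-cell stage, 0 to 1 for SCNT and 0 to 2 for parthenogenetic against fertilized 1-cell embryos, 3 to 5 for parthenogenetic against fertilized 2-cell embryos, and 1 to 3 for treated SCNT against treated fertilized 2-cell embryos.

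Directions that turned were those of Yap1 under another scaling, and those of members whose probe sets disagree. As deposited, Yap1 read -0.35 between fertilized stages, 0.38 for amanitin in fertilized 2-cell embryos, -0.32 and 0.40 for parthenogenetic against fertilized 1-cell and 2-cell embryos, 0.37 for treated SCNT against treated fertilized 2-cell embryos and 0.71 in the stage interaction of parthenogenetic embryos. With median centring the first 2 were -0.49 and 0.38. With probe sets averaged, Lats1 read 0.29, 0.61 and 0.15 between fertilized, SCNT and parthenogenetic stages, 0.37 between treated SCNT stages, -0.28 for amanitin in SCNT 2-cell embryos and -0.12 for parthenogenetic against fertilized 2-cell embryos. Lats2 read 1.05 between SCNT stages, and Tead1 0.57 there, -0.12 for amanitin in SCNT 2-cell embryos and -0.56 in the 2-cell interaction. Yap1 read 0.35 between SCNT stages, 0.045 and -0.38 for amanitin in fertilized and SCNT 2-cell embryos, -0.42 in the 2-cell interaction, 0.22 and 0.17 for SCNT against fertilized 1-cell and 2-cell embryos and 0.075 for SCNT against parthenogenetic 2-cell embryos.

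With the second probe set in place of the first, Yap1 read 0.78 between SCNT stages, 0.25 and -0.85 for amanitin in fertilized and SCNT 2-cell embryos, 0.46 and 0.63 for SCNT against fertilized 1-cell and 2-cell embryos, 0.27 for parthenogenetic against fertilized and 0.37 for SCNT against parthenogenetic 2-cell embryos, and -1.09 and 0.18 in the 2-cell amanitin and SCNT stage interactions. Lats1 read 1.45, 1.77 and 0.85 between fertilized, SCNT and parthenogenetic stages, 0.77 between treated SCNT stages, -0.93 and -1.004 for amanitin in fertilized and SCNT 2-cell embryos and -0.77 for parthenogenetic against fertilized 2-cell embryos. Tead1 read 1.33 between SCNT stages, -1.15 for amanitin in SCNT 2-cell embryos, -0.30 for treated SCNT against treated fertilized 2-cell embryos, and -1.45 and 0.98 in the 2-cell amanitin and SCNT stage interactions. The dimmest passing Lats2 probe set read 2.47 and 0.33 between SCNT and parthenogenetic stages, -0.23 for amanitin in fertilized 2-cell embryos and 0.34 for treated SCNT against treated fertilized 2-cell embryos, and the middle one -0.10 for amanitin in fertilized 2-cell embryos. The dimmest Wwtr1 probe set read -0.0012 for parthenogenetic against fertilized 1-cell embryos, -1.42 for SCNT against fertilized 2-cell embryos and 2.45 in the 2-cell interaction.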
